A study of Mus musculus with 2 samples.

Results

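The Wt1 neighborhood is a 450 kb interval of mouse chromosome 2 (mm9, chr2:104750000-105199999) that reaches from 216.7 kb before the annotated start of Wt1 to 233.3 kb after it. Its members were taken by position alone, as every fixed 1 kb window with at least 3 probes whose midpoints lay in the interval. The interval itself was picked with earlier results of these data known. This gave 414 windows with 4621 probes, out of 14947 windows with 170542 probe positions on the whole array, and 36 windows of the interval held too few probes. The array tiled 11 segments that together span 17.4 Mb, and the interval lies inside a segment of chromosome 2 built around Pax6.

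Chromatin immunoprecipitation of the cohesin subunit Rad21 was read on tiling arrays (ChIP-chip). The cells were RAG, an established renal adenocarcinoma line from a BALB/c mouse, used in the study as its Pax6-OFF cells. There is a single group of 2 arrays, replicate 1 and replicate 2, each from its own flask of untreated, formaldehyde-fixed cells. On each array, DNA from the Rad21 immunoprecipitation and input DNA, both amplified and reamplified across the whole genome, were hybridized together in Cy3 and Cy5. The study placed loop anchors from such signal on a fiber modeled as beads of 1 kb, the scale of the windows here, and since the arrays carry DNA of 1 line only, cell type markers could not be checked.

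Cohesin is a ring-shaped complex that holds chromatin fibers together and extrudes loops, and it is often found where CTCF, a zinc finger protein, sits on its motif. The motif has a direction, and loops are most often seen between CTCF sites whose motifs point toward each other. Wt1 encodes a zinc finger transcription factor needed for kidney and gonad development and known for its loss in Wilms tumor. It shares its promoter region with an antisense RNA, annotated here as AI314831 and named Wt1os in RefSeq. The other protein-coding genes in reach are Ccdc73, which encodes a coiled-coil protein, Eif3m, which encodes a subunit of translation initiation factor 3, Gm11060, a short predicted gene, and 0610012H03Rik, named Them7 in RefSeq. A pseudogene, Gm13888, lies between Eif3m and AI314831.

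Values are given as the log2 ratio of Cy3 over Cy5, with the median of each array set to 0. The labels place the input in Cy3 and the immunoprecipitated DNA in Cy5, without a dye swap. The table of log2 values deposited with the arrays runs in the sense of Cy3 over Cy5 (Pearson r with the Cy3/Cy5 running median of 0.964 on array 1 and 0.962 on array 2 across spots). The direction of enrichment is therefore not settled by these sources, and each result is called higher in Cy3 or higher in Cy5. Median signal in the neighborhood was 43.4 and 55.7 times the local background in Cy3 and 18.8 and 22.7 times in Cy5, on arrays 1 and 2. Between 92.2% and 98.8% of its probes were well above background in a given channel and array, and at most 40 were saturated.

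The ratio did not vary smoothly along the interval. It rose at 8 short regions, numbered 1 to 8 from left to right, which together covered 9582 bp or 2.13% of the interval. A region is a stretch of at least 3 probe positions at which the running median over both arrays passed 0.64. That threshold is the 0.99 quantile of a null mirrored from the low side of the data. By construction 1% of such a null passes. On simulated data this step also called many stretches of noise alone. Regions 1, 2, 4, 5, 7 and 8 were also found on each array called alone, region 6 was found on array 2 but not on array 1, and region 3 on neither. Some of this overlap is built in, since both arrays fed the joint call and 1 bp of overlap was enough. Over the whole array 154 of the 209 regions (73.7%) were found on each array. The sequences at the summits of the 6 regions of the interval found on each array are shown. They are 200 bases of the + strand centered on the summit, and capitals mark a match to the CTCF core motif. The summit is the position with the highest running median over both arrays, the leftmost where positions tied.

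region 5 summit, chr2:105070218-105070417: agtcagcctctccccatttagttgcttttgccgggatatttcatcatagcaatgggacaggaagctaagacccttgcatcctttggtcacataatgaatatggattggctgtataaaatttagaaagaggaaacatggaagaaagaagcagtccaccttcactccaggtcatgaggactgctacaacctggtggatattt
region 2 summit, chr2:104949640-104949839: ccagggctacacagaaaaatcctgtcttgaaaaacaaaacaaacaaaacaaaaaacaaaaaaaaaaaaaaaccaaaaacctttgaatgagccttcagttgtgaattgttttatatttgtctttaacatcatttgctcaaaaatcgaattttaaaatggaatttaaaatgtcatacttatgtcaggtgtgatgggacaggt
region 8 summit, chr2:105174556-105174755: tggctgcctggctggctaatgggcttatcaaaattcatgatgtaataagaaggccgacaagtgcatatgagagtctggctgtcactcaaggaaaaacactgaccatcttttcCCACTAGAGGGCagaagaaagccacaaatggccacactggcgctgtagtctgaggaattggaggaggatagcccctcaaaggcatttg
region 7 summit, chr2:105096858-105097057: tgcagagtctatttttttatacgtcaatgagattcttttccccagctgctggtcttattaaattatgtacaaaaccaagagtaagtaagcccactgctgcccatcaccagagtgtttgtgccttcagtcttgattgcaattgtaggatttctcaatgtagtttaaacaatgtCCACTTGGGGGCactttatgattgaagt
region 1 summit, chr2:104912888-104913087: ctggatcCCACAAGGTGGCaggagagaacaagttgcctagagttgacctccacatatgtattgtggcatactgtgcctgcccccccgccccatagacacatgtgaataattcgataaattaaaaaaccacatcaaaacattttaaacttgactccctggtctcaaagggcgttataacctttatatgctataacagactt
region 4 summit, chr2:105029397-105029596: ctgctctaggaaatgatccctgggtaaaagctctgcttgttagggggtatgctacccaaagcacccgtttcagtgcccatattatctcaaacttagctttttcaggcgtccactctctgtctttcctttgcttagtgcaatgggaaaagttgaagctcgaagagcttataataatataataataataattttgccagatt

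The CTCF core motif is a pattern of 12 bases with some positions open to more than 1 base. It was searched on both strands with at most 1 mismatch, and no other motif was searched. Within 500 bp of a region it was found at 7 of the 8 regions, region 3 being the exception. The match nearest to each summit is shown 5′ to 3′ on its own strand, so that the sites can be compared.

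region 1 match, chr2:104912895-104912906, + strand: CCACAAGGTGGC
region 2 match, chr2:104949258-104949269, + strand: CCAGAAGAGGGC
region 4 match, chr2:105029676-105029687, - strand: CCAATAGAGGGC
region 5 match, chr2:105070674-105070685, - strand: CCACAAGGGGGC
region 6 match, chr2:105079163-105079174, - strand: CCACTAGAGGGC
region 7 match, chr2:105097030-105097041, + strand: CCACTTGGGGGC
region 8 match, chr2:105174668-105174679, + strand: CCACTAGAGGGC

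Regions 6 and 8 carried the same 12 bases and matched the motif with no mismatch, while the other 5 sites had 1 mismatch each. Site and summit were 1 bp apart in region 6, 17 bp in region 8, 77 bp in region 7, 88 bp in region 1 and 184 bp in region 4. They were further apart in region 5, at 361 bp, and region 2, at 477 bp. The highest single probes of both regions lay nearer to the site. In region 5 they were at 300 bp from the summit on array 1 and 180 bp on array 2. In region 2 they were at -412 bp and -254 bp. In region 1 the running median was 1.12 from the summit to 180 bp right of it. The probe at that summit read -0.38 on array 1 and 0.20 on array 2. The highest on both arrays lay at 120 bp, further from the site. A second copy of the region 4 site, also on the - strand, lay within 500 bp of its left edge but outside it. The strands of the sites nearest to the summits fell in blocks. The sites of regions 1 and 2, on the side before Wt1, were on the + strand, those of regions 4, 5 and 6, beyond the end of Wt1, on the - strand, and those of regions 7 and 8 on the + strand again. The region 2 site is the commonest form in the interval, with 16 of its 51 matches. Further matches lay 914 bp (- strand) and 1243 bp (+ strand) right of the region 2 summit, beyond the 500 bp margin. No CTCF signal was measured on these arrays, and contacts between the sites were not measured here.

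Of all 1 kb windows on the array 7.82% held a match, and of the windows of the neighborhood 10.1% did. Of consecutive stretches of 200 bases 1.63% held a match over the tiled sequence and 2.22% in the neighborhood, and 3 of the 6 summit stretches shown above did. That of region 1 did so only with the leftmost of its tied positions taken as the summit. Of stretches of 2399 bases, the median length of the 8 regions with 500 bp added on both sides, 17.4% held a match over the tiled sequence and 22.5% in the neighborhood. Across the array, 150 of the 209 regions higher in Cy3 (71.8%) had a match within 500 bp. A match is a description of the letters and not a measured binding site.

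**Figure D1:**
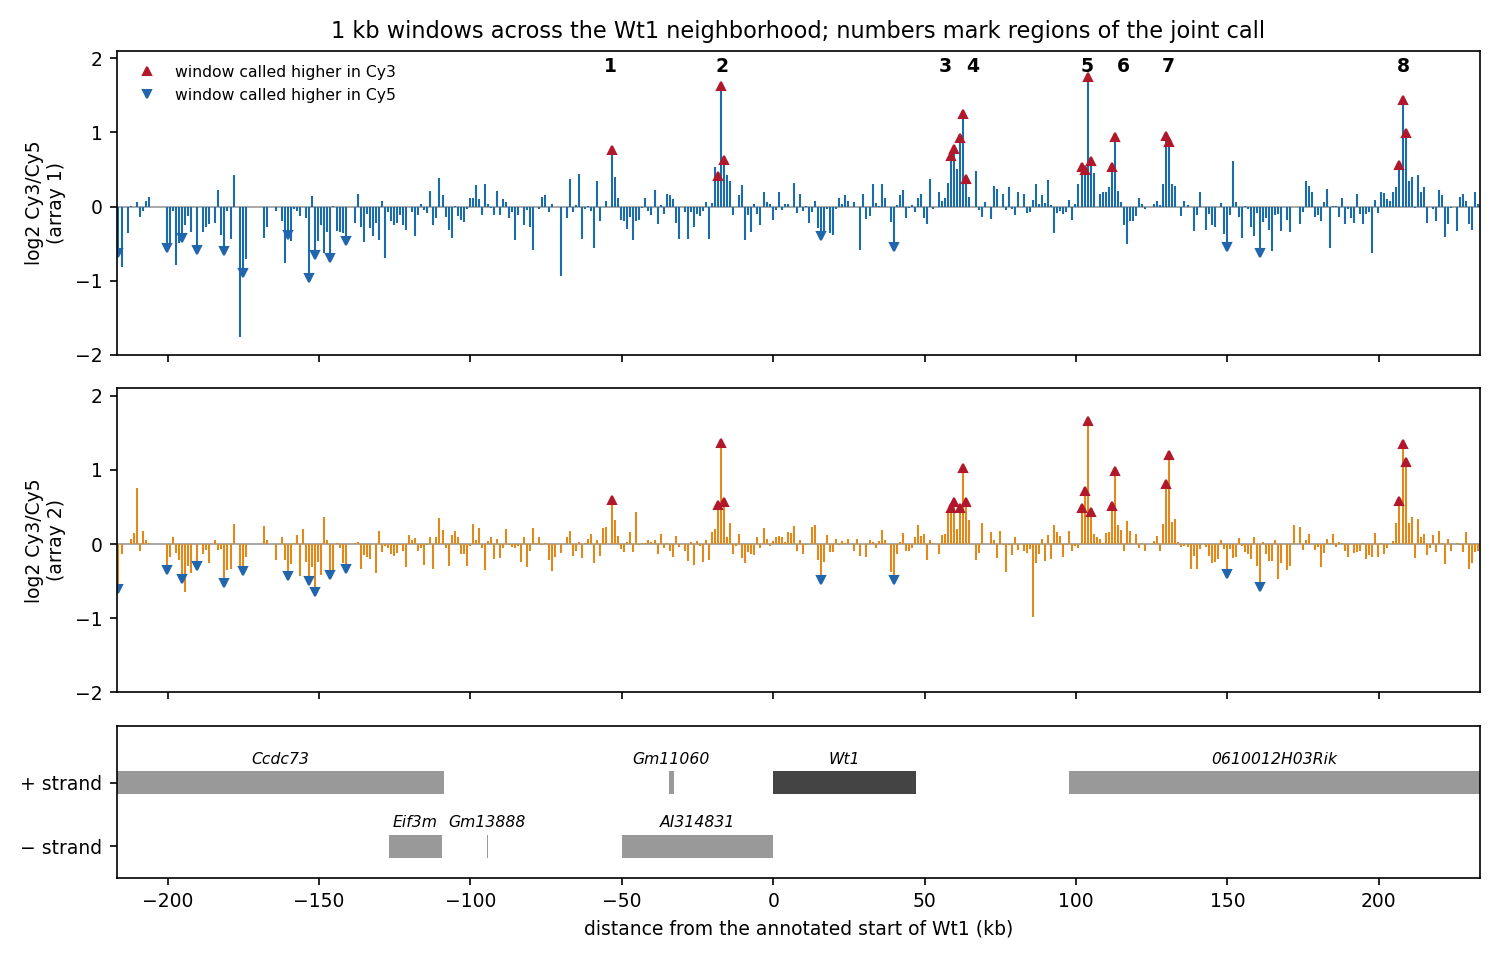
Log2 Cy3/Cy5 of each 1 kb window on array 1 (top) and array 2 (middle) against the distance from the annotated start of Wt1 in kb, with genes by strand below. Triangles mark windows past an adjusted p of 0.05, 20 higher in Cy3 and 15 higher in Cy5, and the numbers mark the 8 regions, none of which lies in the dark bar of Wt1.

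Windows were then tested one by one against 0, with limma fitted to all 14947 windows and Benjamini-Hochberg adjustment over all of them. The 2 arrays came from separate flasks, and the p-values measure no spread other than that between them. For each window limma drew this spread toward a common SD of 0.147, taken from all windows of the array. The common value carries 6.49 degrees of freedom and thus outweighs the spread of the single window. In the neighborhood 20 of 414 windows (4.83%) were higher in Cy3, and 3.69% of all windows on the array were. Another 15 (3.62%) were higher in Cy5, against 5.43% of all windows. Neither share was tested against the rest of the array. The split between the directions depended on the scaling, and was 20 to 42 with arrays centered on their mode (which lay above the median by 0.12 on array 1 and 0.05 on array 2), 21 to 3 after loess, 29 to 5 after another background correction (normexp) and 23 to 2 once the trend on probe GC content was removed. The same 20 windows were called higher in Cy3 under each of these 4 settings.

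The windows higher in Cy3 were the stronger set. Their mean log2 ratios ran from 0.46 to 1.70 with a median of 0.68, and 6 passed 1. The windows higher in Cy5 ran from -0.40 to -0.74 with a median of -0.52, and none passed -1. Of the 20 windows, 18 touched one of the 8 regions. The other 2 were next to a region, chr2:105025000-105025999 beside region 3 and chr2:105068000-105068999 beside region 5. Windows and regions were made from the same probe values, so their overlap here and below is largely built in. Across the 414 windows Pearson r between the arrays was 0.683 and Spearman rho 0.533, which describe neighboring and thus dependent positions. The median SD between the arrays was 0.10 per window.

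**Figure D2:**
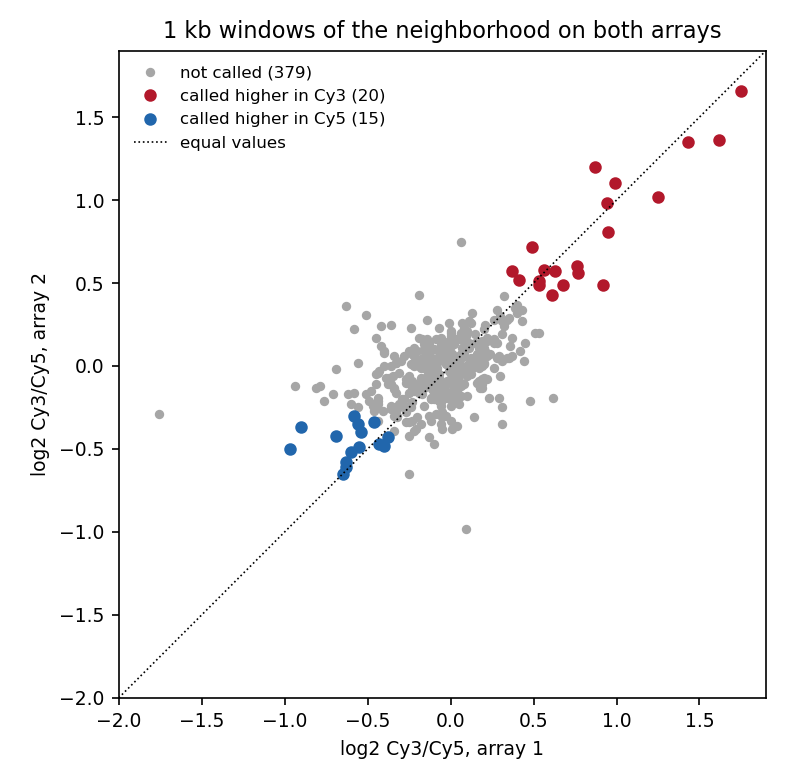
Each point is a 1 kb window of the neighborhood, with its log2 Cy3/Cy5 on array 1 (horizontal) and array 2 (vertical), colored by its call. The 20 windows higher in Cy3 lie near the line of equal values out to 1.75 and 1.66, while the 15 higher in Cy5 lie closer to the uncalled cloud.

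The region means and folds given from here on are over probes selected for a high ratio on these same arrays. Region 5 was the strongest of the 8. It spans chr2:105069026-105071008 in an intron of 0610012H03Rik, 103.6 kb beyond the start of Wt1 and 5.8 kb beyond the start of 0610012H03Rik. Over its 18 probes the mean log2 ratio was 1.33 on array 1 and 1.35 on array 2, a mean of 1.34 ± 0.01 (SD, n = 2) or 2.53-fold. In the windows it touched the SD between the arrays was 0.16, 0.06 and 0.13, and the median SD of a window in the interval was 0.10. Both arrays placed the highest running median of the neighborhood in this region (2.06 and 2.18). Its central window, chr2:105070000-105070999, read 1.75 and 1.66 and was the highest of the 414 (limma, mean 1.70, SE 0.10, adjusted p = 0.000168). Among the 209 regions of the array its running median of 2.03 ranked 29. All 3 windows it touched were higher in Cy3.

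Region 2 lies nearest to the start of Wt1. It spans chr2:104948759-104950110 in an intron of the antisense RNA AI314831, with its summit 16.9 kb before the Wt1 start. Its 16 probes averaged 1.33 on array 1 and 1.25 on array 2, a mean of 1.29 ± 0.06 (SD, n = 2) or 2.44-fold. Every probe in it was above 0 on both arrays, with the lowest at 0.11 and 0.09 and the highest at 2.48 and 2.46. The central window read 1.62 and 1.36 and was the second of the interval (limma, mean 1.49, adjusted p = 0.000336). It was the only region inside the transcribed span of AI314831.

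Region 8 overlaps CTCF10B, a fragment named for CTCF from which the study captured chromatin contacts, and the only such fragment of its list in the interval. The region spans chr2:105173787-105175801 in an intron of 0610012H03Rik, 208.0 kb beyond the Wt1 start, and is the longest of the 8 at 2015 bp. Its 30 probes averaged 1.19 and 1.25, a mean of 1.22 ± 0.04 (SD, n = 2) or 2.33-fold. The window at the middle of CTCF10B, chr2:105174000-105174999, read 1.43 on array 1 and 1.35 on array 2 and was higher in Cy3 (limma, mean 1.39 ± 0.05, adjusted p = 0.00031). It ranked 71 of the 14947 windows of the array. The window to its right was also above 1, with a mean of 1.05.

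Region 7, chr2:105096089-105097787, lies in an intron of the same gene. Its 23 probes averaged 0.97 on array 1 and 1.00 on array 2, a mean of 0.98 ± 0.01 (SD, n = 2) or 1.98-fold. Both windows it touched were called, at means of 0.88 and 1.03. Region 4, chr2:105028739-105030185, is intergenic, between Wt1 and 0610012H03Rik. Its 15 probes averaged 0.91 and 0.79, a mean of 0.85 ± 0.09 (SD, n = 2) or 1.80-fold, and its central window averaged 1.14 (limma, adjusted p = 0.000872).

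Region 1, chr2:104912959-104913384, is the shortest of the regions found on each array, at 426 bp and 6 probes. It is intergenic and 53.7 kb before Wt1. The arrays read 0.96 and 0.85, a mean of 0.90 ± 0.08 (SD, n = 2) or 1.87-fold. The tiling is interrupted to its left, so its true left edge was not seen. Its window averaged 0.68 (limma, adjusted p = 0.00872).

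Regions 3 and 6 were not found on both arrays. Region 6, chr2:105078780-105079259, read 0.94 and 0.89 over 8 probes, a mean of 0.91 ± 0.04 (SD, n = 2), so the arrays differed little in level. It was missed on array 1 alone, where the threshold was 0.93 against 0.66 on array 2 and fewer than the 3 positions needed passed. Region 3, chr2:105026330-105026509, rested on 3 probes and read 0.78 on array 1 but 0.34 on array 2, a mean of 0.56 ± 0.31 (SD, n = 2). It lies 3.1 kb from region 4 and was not found again under 8 of 13 other settings, whereas regions 1, 2, 4, 5, 7 and 8 were found under all 13 and region 6 under 12. Its window, which holds the same probes among others, averaged 0.67 and passed the test (limma, adjusted p = 0.0107).

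**Figure D3:**
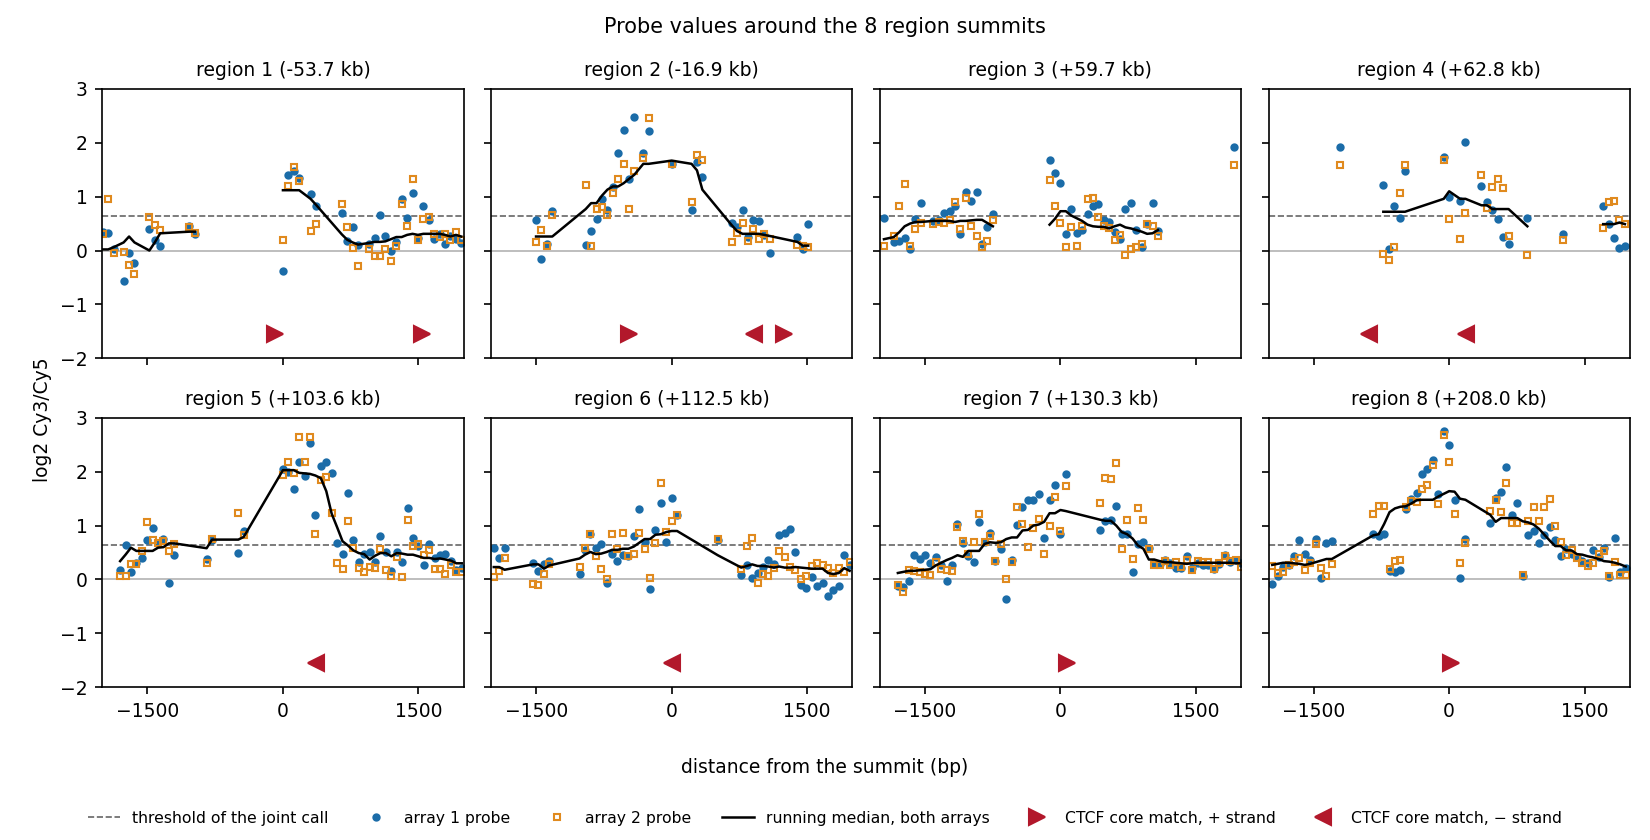
Log2 Cy3/Cy5 of single probes on array 1 (filled circles) and array 2 (open squares) within 2 kb of each region summit, with the running median over both arrays (line, broken where probes are over 600 bp apart), the threshold of 0.64 (dashed) and matches to the CTCF core motif (triangles pointing in the direction of the strand). Regions 2, 5 and 8 rise highest, and region 3 barely passes the threshold. The match lies off the summit of the running median in regions 2 and 5, where the highest single probes lie nearer to it.

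A high ratio can come from more Cy3 or from less Cy5, so the channels were also set apart. For each region the mean log2 signal of each channel was compared with that of probes 2 to 10 kb away and outside every region. In region 8 both channels were above their flanks, Cy3 by 2.00 and 1.96 on arrays 1 and 2 and Cy5 by 0.88 and 0.71. In regions 6 and 7 Cy3 was also well above its flanks and Cy5 within 0.25 of them. In region 2 Cy3 was above its flanks by 1.37 and 1.31, and Cy5 differed by -0.04 and -0.01. In regions 1 and 5 Cy3 was above and Cy5 below the flanks on both arrays.

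Regions 3 and 4 stood apart. Both channels were below their flanks there, in region 4 Cy3 by -0.46 and -0.79 and Cy5 by -1.19 and -1.44. In region 3 the differences were -0.40 and -0.57 in Cy3 and -1.11 and -0.87 in Cy5. The ratio was thus high in these 2 regions with less signal in Cy3 than beside them, unlike in the other 6. The GC content of the 8 regions ran from 39.4% to 49.4%, with region 4 at 40.0% and region 3 at 48.9%. The part of base composition and amplification in these levels was not tested.

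**Figure D4:**
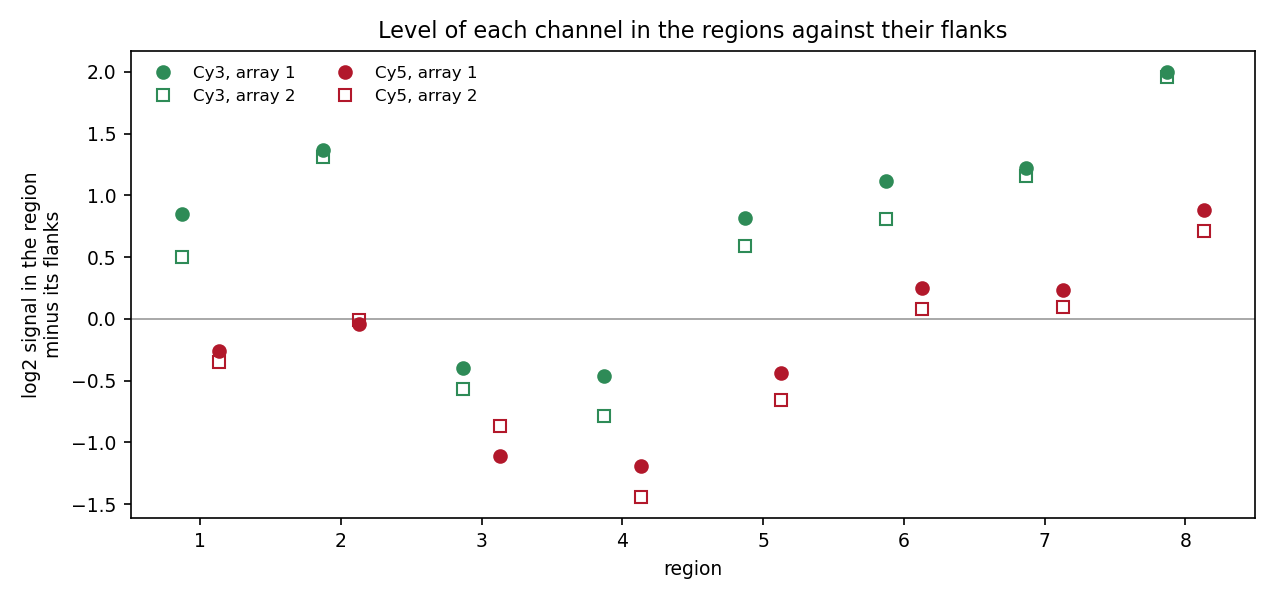
Mean log2 signal of Cy3 and Cy5 in each region minus that of its flanks (probes 2 to 10 kb from its edges and outside all regions), for array 1 (circles) and array 2 (squares). Cy3 lies above 0 in regions 1, 2, 5, 6, 7 and 8 on both arrays and below 0 in regions 3 and 4, where Cy5 is lower still.

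The start of Wt1 itself carried no called ratio. Its window, chr2:104966000-104966999, also holds the start of AI314831 and read -0.18 on array 1 and 0.04 on array 2, a mean of -0.07 ± 0.16 (SD, n = 2; limma, adjusted p = 0.718). The arrays fell on either side of 0. No other start of a protein-coding gene in the interval was called. The Eif3m window read 0.15 and 0.19 (mean 0.17, adjusted p = 0.303), that of Gm11060 0.16 and -0.10 (mean 0.03, adjusted p = 0.903), and that of 0610012H03Rik 0.09 and 0.18 (mean 0.13, adjusted p = 0.423), all by limma. A p that misses the threshold does not show that the ratio is 0. Ccdc73 starts outside the interval. Every summit was at least 5.8 kb from the start of a protein-coding gene, and the nearest to the Wt1 start was 16.9 kb away.

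No region fell in the body of Wt1, which spans 47.1 kb (chr2:104966686-105013773, + strand). Of the 45 windows centered in it, 0 were higher in Cy3 by limma, beside 3.69% of all windows on the array, and this difference was not tested. At an unadjusted p under 0.05 there were 2, and 0 were called with a trended and robust variance prior. The mean of the 45 windows was -0.03 on array 1 and -0.02 on array 2. Another 2 of its windows (4.44%, beside 5.43% on the array) were higher in Cy5, chr2:104982000-104982999 at -0.40 and -0.48 and chr2:105006000-105006999 at -0.55 and -0.49. Wt1 thus lay in the 76.2 kb between region 2 and region 3, where the mean window ratio was 0.00 on array 1 and 0.01 on array 2.

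The part of 0610012H03Rik inside the interval held 4 of the 8 regions. Of the 130 windows centered in it 11 (8.46%) were higher in Cy3, beside 3.69% on the array, and 2 higher in Cy5, and the mean was 0.04 on both arrays. Its difference from Wt1 was not tested. AI314831 held 1 region and 3 windows higher in Cy3 among 49 (6.12%). The 163.0 kb from the left edge to region 1, which hold Eif3m and the part of Ccdc73 inside the interval, had no region. No window in them was higher in Cy3 by limma, and in Ccdc73 3 of 88 windows were at an unadjusted p under 0.05 and 1 was called with the trended and robust prior.

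Of the 15 windows higher in Cy5, 11 lay in introns of Ccdc73, which is 12.5% of its 88 windows, against 5.43% of all windows on the array and 12.2% in the part of the same segment above the neighborhood. Another 2 lay in introns of Wt1 and 2 in introns of 0610012H03Rik. The lowest, chr2:104813000-104813999, read -0.97 on array 1 and -0.50 on array 2 (limma, mean -0.74, adjusted p = 0.0163). The next, chr2:104815000-104815999, read -0.65 on both arrays (adjusted p = 0.00853). Over its 88 windows in the interval Ccdc73 averaged -0.27 on array 1 and -0.12 on array 2.

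These windows were AT-rich. The median GC content was 31.5% in the 15 windows higher in Cy5, 43.8% in the 20 higher in Cy3 and 43.3% over all windows of the neighborhood, and it was 35.2% in Ccdc73 against 46.1% in Wt1. Once the trend on probe GC content was removed, 2 of the 15 windows were still higher in Cy5, and none were with the trended and robust prior, under which 50 windows had an unadjusted p under 0.05 in that direction. The region call in this direction, with a threshold of 1.11, found 0 regions in the neighborhood and 4 on the whole array.

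Most matches to the CTCF core motif had no raised ratio beside them. The interval held 51 matches, or 1.13 per 10 kb against 0.843 per 10 kb over all tiled sequence, and 8 of them were within 500 bp of a region. Of the other 43, 39 had a probe within 200 bp and a running median there, which ranged from -0.47 to 0.60 with a median of 0.02. Of the 20 windows higher in Cy3, 8 (40.0%) held a match, as did 1 of the 15 higher in Cy5 (6.67%) and 33 of the 379 uncalled windows (8.71%). Over the whole array the shares were 34.8%, 4.07% and 6.95%.

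The motif was matched without a mismatch at 3 sites. Those of regions 6 and 8 are shown above, and the third, CCAGTAGAGGGC at chr2:105139239-105139250 on the + strand, lies 172.6 kb beyond the Wt1 start and outside every region. The running median at its nearest probe, 123 bp away, was 0.60 and thus just short of the threshold of 0.64, but it rested on 6 values. The 5 probes within 600 bp averaged 0.22 on array 1 and 0.60 on array 2, and its window had too few probes to be tested.

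**Figure D5:**
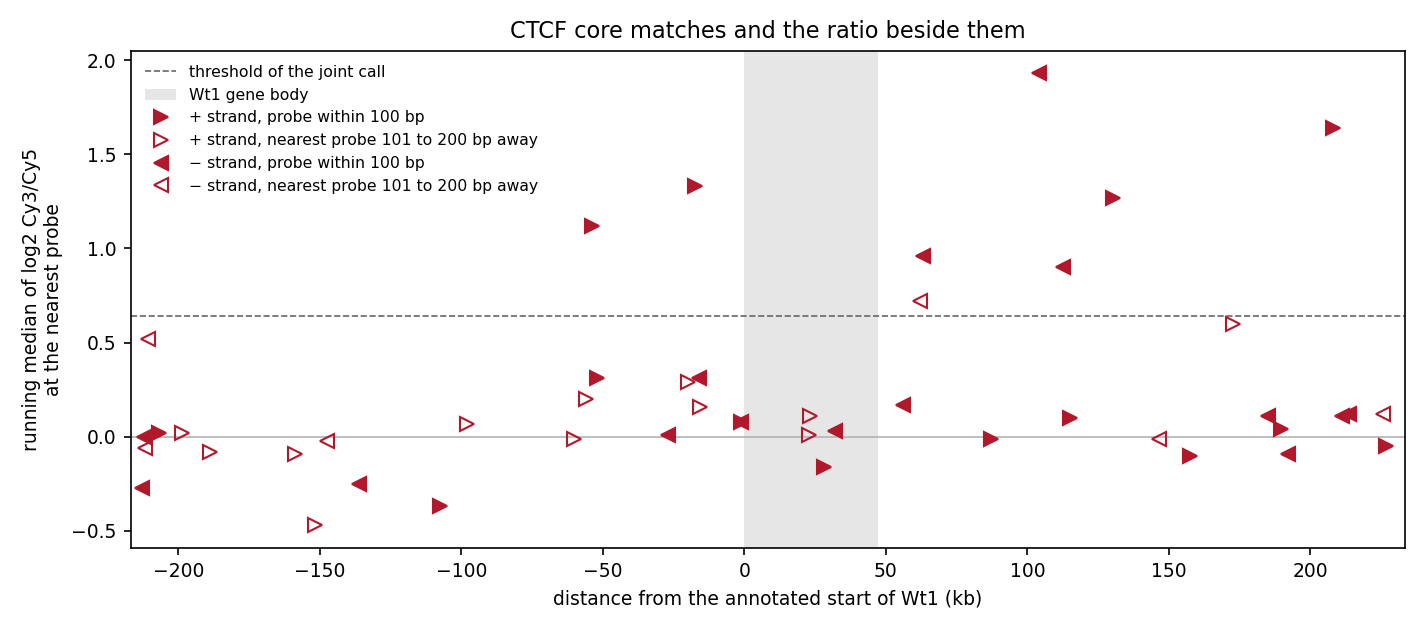
Running median of log2 Cy3/Cy5 over both arrays at the probe nearest to each match of the CTCF core motif, against the distance from the Wt1 start in kb, with triangles pointing in the direction of the strand and open where the nearest probe is over 100 bp away. Matches above the dashed threshold of 0.64 point right before Wt1 (gray band), left in regions 4 to 6 after it, and right again in regions 7 and 8.

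The neighborhood was set beside the rest of its tiled segment, the parts below and above it in coordinate. It held 17.8 regions per Mb, against 20.0 in the 1.25 Mb below it, 6.52 in the 2.3 Mb above it and 12.0 over the whole array. The windows that touched a region made up 4.35% of the neighborhood and 3.22% of the array, and those that touched a region found on each array 3.62% and 2.69%. Windows higher in Cy5 made up 3.62% of the neighborhood, 3.20% below it and 12.2% above it. The mean window ratio was -0.02 ± 0.02 (SD, n = 2) in the neighborhood, 0.02 ± 0.01 below it and -0.19 ± 0.05 above it. The median extreme of its regions was 1.21 against 1.29 over the array. These differences between parts were not tested.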

How the data were processed

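Rad21 ChIP and input DNA of RAG cells were hybridized to 2 tiling arrays, 1 per flask. The deposited intensities came from Feature Extraction 10.5.1.1. That software had removed background and spatial trends and scaled each dye by a linear factor, and gave the coordinates of the probes in mm9, per the file headers. The authors also deposited a table of log2 ratios, made with Ringo according to the methods, whose parameters are not given in the sources used here. These ratios are smoothed and served as an alternative, with their rows matched to probes by the correlations above. Control spots and 27 outlier spots were left out, copies of a probe averaged, and log2 Cy3/Cy5 of the processed intensities centered on the median of all non-control probes, without loess. Means of 1 kb windows with at least 3 probes were tested with limma 3.58.1 in R 4.3.3 (lmFit and eBayes, two-sided, Benjamini-Hochberg over 14947 windows, threshold 0.05).

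Ringo was not used here, and its steps were written anew for the region call. Ratios of both arrays were smoothed by a median over all values up to 400 bp from a position (5 or more needed). The null was the low side of the smoothed values, mirrored at their mode, and its 0.99 quantile was the threshold. Regions needed 3 positions, and gaps under 600 bp were bridged. Both steps were tested on simulated data, where the region step found nearly all planted regions but also called many stretches of noise alone. For the region step the noise was drawn independently for each probe position and array. The share of false calls in the real data is therefore not known from it. Sequence and genes come from NCBIM37 (mm9) and GENCODE M1, and newer gene names from RefSeq. Python 3.11.15, numpy 2.4.6 and pandas 2.3.3 were used. Genes were named if they overlap the interval, regions if their summit lies in it, and windows as the most extreme past the threshold. The members and lists were chosen with earlier results of these data known. Each array was its own slide, so no fit with the slide as a block exists. The number of arrays and of probes per window limits the precision, and none of their columns was left without a sample. The alternatives are given in the closing section.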

Additional observations from a re-analysis of the deposited data

How the results depend on the processing

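The 20 windows higher in Cy3 stayed between 17 and 29 with 1 kb windows, 19 with 2 kb windows, and became 33 with 500 bp windows. The 15 higher in Cy5 became 5 after normexp, 28 without background correction, 3 after loess, 42 with arrays centered on the mode, 5 with probes well above background only, 2 after removal of the GC trend, 2 in the deposited log2 table, 28 with 500 bp windows, 25 with 2 kb windows and 0 with the trended and robust prior. The 8 regions higher in Cy3 became 6 to 12, and 6 or 7 when either array was left out. The 6 found on each array became 11 once the GC trend was removed and were 4 to 8 otherwise, with 4 at the strictest quantile tried and with a running median of 200 bp. Regions higher in Cy5 were 1 with a running median of 200 bp, and 0 to 2 when either array was left out, with the 2 coming from array 1 alone. The mean ratio of the interval, -0.02, was 0.02 after normexp, 0.03 after loess and after removal of the GC trend, 0.01 with probes well above background and in the deposited table, -0.10 with centering on the mode, and -0.04 to 0.00 when either array was left out. The Wt1 start window read 0.06 with 500 bp windows (limma, adjusted p = 0.811), and that of Gm11060 read -0.05 with mode centering and -0.01 without the GC trend. The CTCF10B window was called in every fit of both arrays. The mean over each region kept its sign in all 80 alternatives, between 0.34 and 1.54. This was largely built in, since the probes had been selected for a high ratio on these same arrays. The causes were not tested. With 1 array no window test is possible, and 2 arrays limit every p-value here. The direction of the dyes is not settled, so no result is named as enrichment. The ratio pairs the 2 channels of each array. No pairing between arrays was possible because all samples belong to 1 group.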

Other observations

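A single 12-base sequence, CCAGAAGAGGGC, made up 16 of the 51 matches to the CTCF core motif in the interval and 345 of the 1470 in all tiled sequence. The match of region 2 was among the 16, with a probe 5 bp away, and it was the only 1 of them in a region. The other 15 lay 102 to 231 bp from the nearest probe, and the 14 with a running median within 200 bp ranged from -0.47 to 0.52 with a median of 0.01. Matches with other letters, outside regions and within 100 bp of a probe, numbered 22 and reached at most 0.31, with a median of 0.03.

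The windows that differed most between the arrays were all uncalled. In an intron of Ccdc73, chr2:104790000-104790999 read -1.76 on array 1 and -0.29 on array 2 over 3 probes, the lowest mean of the interval at -1.03 (limma, adjusted p = 0.0675). Between Wt1 and 0610012H03Rik, chr2:105052000-105052999 read 0.09 and -0.98, also over 3 probes (limma, adjusted p = 0.238).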
